A study of Mus musculus with 12 samples.

Results

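Bulk RNA of tumours that over-expressed Aoah was compared between 2 mouse melanoma models, B16mhgp100 and B16F10. The comparison took 5 of the 12 libraries of the series, 3 of B16mhgp100 and 2 of B16F10, and asks how the Aoah tumours of both models differ. Both are B16 cell lines, grown as tumours under the skin of C57BL/6 mice, and every tumour compared carried the Aoah over-expression. The B16mhgp100 mice received anti-PD1 from day 10 after inoculation. The B16F10 mice received anti-PD1 together with anti-CTLA4 from day 6. Antibody was dosed at 200 µg, 4 times in all and 2 times per week, and tumours were collected 1 day after the last dose. Model, antibodies, start day and tumour age at collection change together and cannot be told apart, and no group went untreated. B16mhgp100 Aoah 4 was left out because it carries skin and muscle transcripts, and it is shown as a check only. Tumours with the empty Vector, 4 of B16mhgp100 and 2 of B16F10 under the same antibodies, share no library with the Aoah tumours and were used to see which differences were there without the Aoah construct. The labels give neither the construct's promoter nor whether each tumour came from its own mouse. The p-values therefore describe the scatter among these particular tumours, which may be technical.

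Anti-PD1 and anti-CTLA4 block receptors that restrain T cells. T cells that recognise a tumour release interferon-gamma, which raises the genes for MHC class I and II presentation, guanylate-binding proteins and CXCR3 ligands in the cells around them. Type I interferon raises an overlapping set of antiviral genes. Aoah encodes acyloxyacyl hydrolase, a lipase that removes acyl chains from bacterial lipopolysaccharide. B16 cells are pigmented, so a tumour's RNA also holds the genes of the melanosome, the organelle that makes melanin. In bulk RNA, fewer cells of a type and less RNA per cell cannot be told apart.

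Levels are in TPM, which corrects for the length of a gene and for the size of a library. Between 14014 and 14490 genes reached 1 TPM in each of the 5 libraries, and reads per library are unknown. Mitochondrially encoded genes made up 3.30% to 5.18% of TPM in B16mhgp100 Aoah 1 to 3 and 6.38% and 5.95% in B16F10 Aoah 1 and 2. Across genes, which are not independent, the deviation of B16F10 Aoah 1 from the other libraries followed transcript length with Spearman rho = -0.24 and GC content with rho = 0.392. For B16F10 Aoah 2 these were -0.181 and 0.369, and for B16mhgp100 Aoah 1 to 3 they lay between 0.033 and 0.152 for length and between -0.166 and 0.035 for GC. B16mhgp100 Aoah 4 had a keratinocyte score, the mean log2(TPM + 1) of the list's members, of 9.66, where the 5 libraries compared had 1.35 to 3.15. Its skeletal muscle score was 9.45, where they had 1.52 to 4.58.

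Aoah itself was present in every tumour compared. It stood at 17.92, 22.46 and 13.96 TPM in B16mhgp100 and at 21.75 and 23.73 TPM in B16F10, so the ranges overlapped. The log2 difference, here and below the B16mhgp100 mean minus the B16F10 mean of log2(TPM + 1), was -0.34 (SE 0.21, adjusted p = 0.268). On this scale the change of genes with low TPM is understated. Vector tumours held Aoah at 7.58, 0.89, 2.43 and 1.57 TPM in B16mhgp100 and at 1.49 and 0.75 TPM in B16F10. B16mhgp100 Aoah 4, the library left out, had 3.91 TPM, within the Vector range. Pmel, the gene of the melanosome protein gp100, stood at 11723.5, 6952.06 and 11256.3 TPM in B16mhgp100 and at 15880.8 and 14592.1 TPM in B16F10, with a log2 difference of -0.65 (SE 0.26, adjusted p = 0.116). The melanocyte markers Mlana, Tyr, Tyrp1, Dct, Sox10 and Mitf were above 100 TPM in each of the 5 libraries.

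Many genes differed. Of 15005 genes tested, 4268 passed an adjusted p of 0.05 (28.4%), 2581 higher in B16mhgp100 (17.2%) and 1687 lower (11.2%). Among them 710 were higher and 499 lower by 1 log2 unit or more, and 85 higher and 77 lower by 2 or more. The values of both groups did not overlap for 8959 genes (59.7%), 5293 higher (35.3%) and 3666 lower (24.4%). An exact permutation test of 3 against 2 libraries has 10 arrangements and cannot go below p = 0.1, so none is given for single genes. The count of calls rests on both B16F10 libraries: without B16F10 Aoah 1 it was 17 higher and 2 lower, and without B16F10 Aoah 2 it was 530 and 154. With B16mhgp100 Aoah 4 added it was 9 higher and 11 lower, and without B16mhgp100 Aoah 1 it was 1362 and 1114. Counts within lists are to be read against the shares of all genes, 17.2% higher and 11.2% lower. The median log2 difference of all genes was 0.10, and list medians are to be read against it. Scaling the libraries by median of ratios moved it by 0.109 and turned the split to 1957 higher and 2267 lower, so that 46.3% of calls were higher where 60.5% were before.

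Calls followed transcript length and GC content. Among the shortest transcripts, 1 of 5 equal classes, 8.6% of genes were called higher and 13.3% lower, with a median log2 difference of -0.06. Among the longest, 27.6% were higher and 5.21% lower, with a median of 0.325. By GC content the median ran from 0.391 in the lowest class to -0.232 in the highest. With this trend removed from each library, an alternative chosen after seeing the data, 1229 genes were higher and 1409 lower among 14300, and 2219 of the 4126 matched calls were called the same way. The part of this trend in the differences of single genes was not tested beyond these values.

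Most calls pointed the same way in Vector tumours. There 743 of 15267 genes passed (4.87%), 459 higher (3.01%) and 284 lower (1.86%). Of the 4187 Aoah calls also tested in Vector tumours, 3779 (90.3%) had the same sign, and 503 were called the same way. This is 69.3% of the 726 Vector calls tested in both, where 28.4% of all genes were called in Aoah tumours. Another 8 were called the opposite way. The share with the same sign among all genes was not counted. Both contrasts had a median above 0 (0.10 in Aoah, 0.12 in Vector tumours) and followed transcript length (rho = 0.224 and 0.241). The Vector counts rest on single libraries: without B16F10 Vector 1 they were 3105 higher and 709 lower, and without B16F10 Vector 2 124 and 36. Without B16mhgp100 Vector 1, 2, 3 or 4 they were 239 and 183, 333 and 168, 108 and 59, and 145 and 143. A fit of 11 libraries tested the difference between both contrasts directly, as Aoah minus Vector. There 45 of 16261 genes passed (0.277%), 10 higher (0.0615%) and 35 lower (0.215%). Across 14398 genes the log2 differences of both contrasts correlated at r = 0.546, given as a description.

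**Figure D1:**
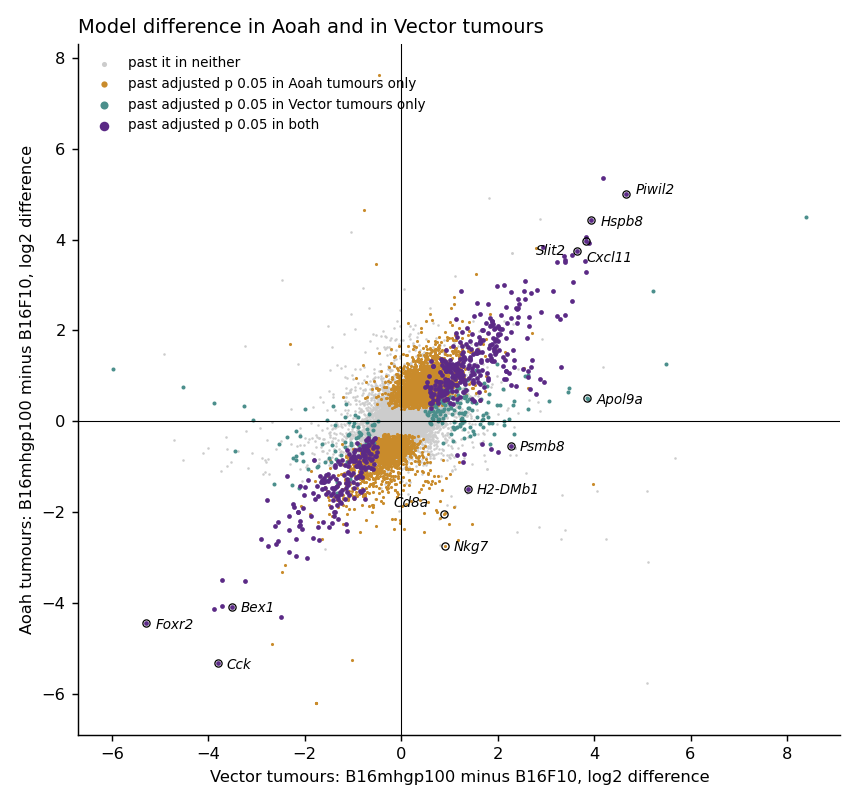
Each point is a gene tested in both contrasts, with the log2 difference in Vector tumours on the horizontal axis and in Aoah tumours on the vertical axis, coloured by which contrast passed an adjusted p of 0.05. Piwil2, Hspb8, Slit2 and Cxcl11 sit at the upper right and Foxr2, Cck and Bex1 at the lower left, while Nkg7, Cd8a, H2-DMb1 and Psmb8 were below 0 in Aoah tumours and above 0 in Vector tumours.

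Among the 12 named genes with the largest difference upward, 11 passed in Aoah and in Vector tumours. Piwil2, which encodes a Piwi protein of the germline piRNA pathway, stood at 50.82, 38.98 and 54.26 TPM in B16mhgp100 and at 0.55 and 0.47 TPM in B16F10. It was near absent from both B16F10 libraries, a log2 difference of 5.01 (SE 0.18, adjusted p = 0.000678). Hspb8, a small heat shock protein, stood at 77.57, 57.79 and 69.57 TPM against 2.73 and 1.75 TPM (4.43, SE 0.19, adjusted p = 0.00122). The groups were far apart, and in Vector tumours the differences of these genes were 4.67 and 3.94. Slit2, a secreted guidance protein that binds Robo receptors, stood at 47.61, 30.5 and 53.95 TPM against 1.79 and 1.76 TPM (3.98, SE 0.26, adjusted p = 0.00319). Nr5a1, the steroidogenic factor of gonads and adrenal, stood at 19.71, 12.78 and 19.47 TPM against 0.1 and 0.28 TPM (3.92, SE 0.24, adjusted p = 0.00292). Both genes were low in each B16F10 library and their ranges did not touch. Cxcl11, a ligand of the chemokine receptor CXCR3 of T cells, stood at 15.27, 15.44 and 15.61 TPM against 0.13 and 0.33 TPM, with close values in the 3 B16mhgp100 libraries (3.75, SE 0.16, adjusted p = 0.00106). The rest were Xlr (4.06), Bcas1 (3.85), the vomeronasal receptor gene Vmn1r139 (3.66), the matrix link protein gene Hapln1 (3.51), the glycosyltransferase gene Galnt6 (3.50) and Slc2a4, the insulin-regulated glucose transporter (3.28). All 11 were also called higher in B16mhgp100 Vector tumours, with log2 differences from 2.94 for Bcas1 to 4.67 for Piwil2. In B16mhgp100 Aoah 4 their levels ran from 2.61 TPM (Hapln1) to 32.49 TPM (Hspb8). Genes were tested if they reached 1 TPM in at least 2 libraries. Among those with levels given here, Piwil2, Nr5a1 and Cxcl11 reached this filter in B16mhgp100 alone, so their higher level follows from the filter. The same may hold for Xlr, Vmn1r139, Hapln1, Galnt6 and Slc2a4, whose levels in the compared libraries are not given here.

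The remaining gene of the 12 was unlike the others. Rn7s2, a gene of the 7SL RNA of the signal recognition particle, stood at 192.11, 355.56 and 258.01 TPM against 0.1 and 0.61 TPM (7.62, SE 0.30, adjusted p = 0.000896). The Vector libraries did not divide by model, with 240.16, 391.82, 0.02 and 0 TPM in B16mhgp100 and 0.3 and 450.72 TPM in B16F10. This gene has near-identical copies between which reads can be split, so its values are uncertain. It reached the filter in B16mhgp100 alone, so its higher level in Aoah tumours follows from the filter.

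**Figure D2:**
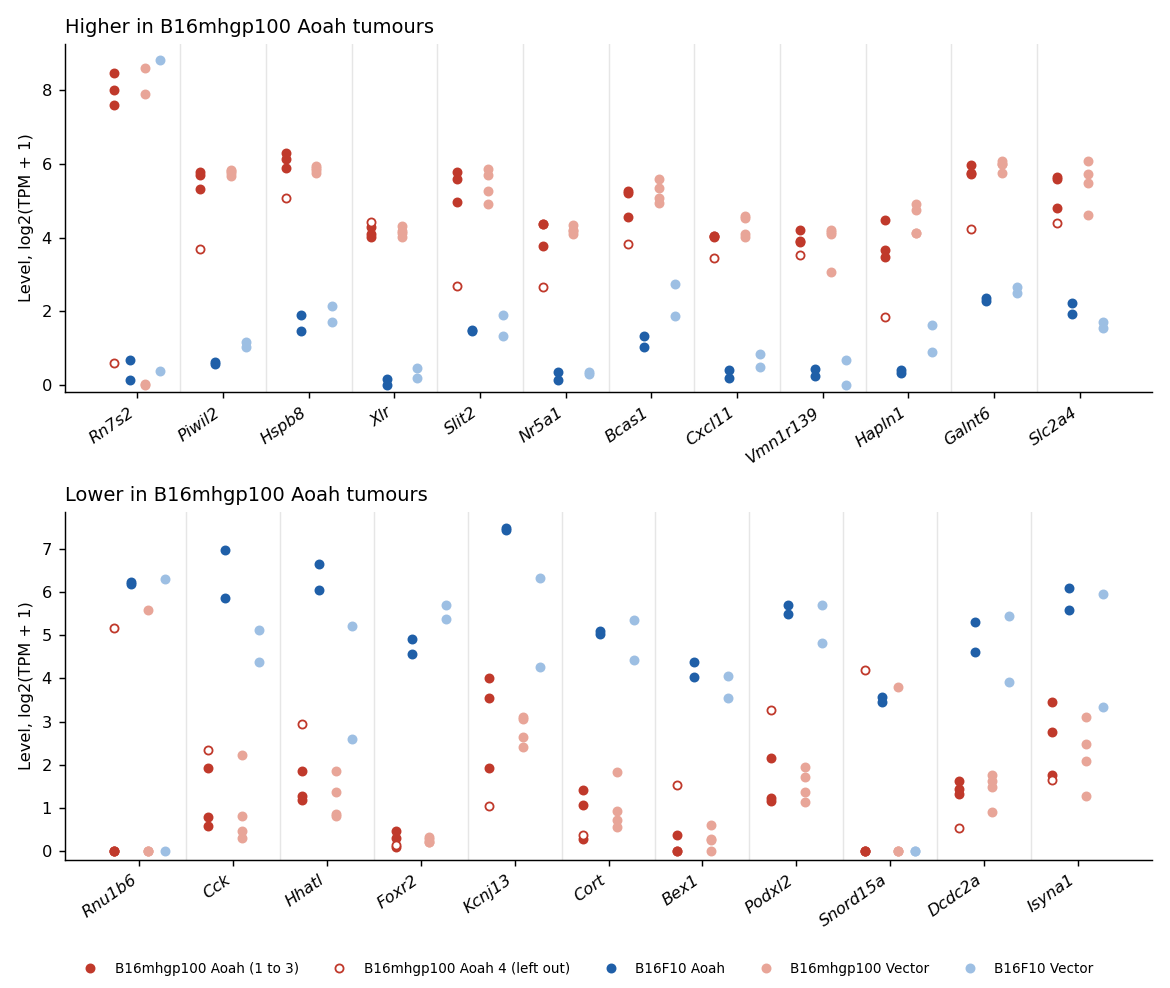
Levels as log2(TPM + 1) in every library for the named genes with the largest difference, 12 higher and 11 lower, with B16mhgp100 Aoah 4 as an open circle. For Piwil2, Hspb8 or Foxr2 the B16mhgp100 Aoah and Vector libraries sit together, apart from both B16F10 groups, while the small RNA genes Rn7s2 and Rnu1b6 vary between libraries of 1 group.

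Genes lower in B16mhgp100 included genes of secreted peptides and of a transcription factor. Cck, the gene of the peptide cholecystokinin, stood at 2.77, 0.5 and 0.74 TPM in B16mhgp100 and at 57.71 and 125.04 TPM in B16F10. The groups were far apart although the B16F10 libraries differed from each other, and the log2 difference was -5.33 (SE 0.51, adjusted p = 0.00494). Foxr2, a forkhead transcription factor, stood at 0.24, 0.39 and 0.07 TPM against 22.84 and 29.02 TPM (-4.45, SE 0.21, adjusted p = 0.0013). Kcnj13, a potassium channel, stood at 15.14, 2.82 and 10.68 TPM against 172.24 and 179.1 TPM (-4.30, SE 0.61, adjusted p = 0.00932). Cort, which encodes the peptide cortistatin, stood at 1.67, 0.21 and 1.11 TPM against 33.23 and 31.77 TPM (-4.14, SE 0.35, adjusted p = 0.00448). In these 4 genes no B16mhgp100 library came near the B16F10 range. Foxr2 reached the filter in B16F10 alone and Cck met it through B16F10, so their lower level follows from the filter. The same direction passed in Vector tumours, by -3.81, -5.29, -2.49 and -3.88. Bex1 (-4.08), Podxl2 (-4.08) and Dcdc2a (-3.51) passed in Vector tumours too. Hhatl (-4.91) and Isyna1, the enzyme of inositol synthesis (-3.17), had Vector differences of -2.68 (adjusted p = 0.0692) and -2.41 (adjusted p = 0.109). Rnu1b6, a gene of U1 spliceosomal RNA with near-identical copies, was listed at 0 in B16mhgp100 Aoah 1 to 3 and stood at 71.77 and 74.47 TPM in B16F10. Snord15a, a small nucleolar RNA, was listed at 0 in the same 3 libraries and stood at 10.04 and 10.84 TPM in B16F10. In B16mhgp100 Aoah 4 Rnu1b6 had 34.71 TPM and Snord15a 17.32 TPM, and both are uncertain in libraries selected for poly(A) RNA. Bex1, Rnu1b6 and Snord15a reached the filter in B16F10 alone, so their lower level follows from the filter as well. The same may hold for Hhatl, Podxl2 and Dcdc2a, whose levels are not given here.

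T cell genes were lower in B16mhgp100 Aoah tumours. Of 16 genes of the T cell receptor complex and its signalling, 15 were kept by the filter of 1 TPM in at least 2 libraries, of which 3 reached it in B16F10 alone, so that their lower level follows from the filter. Of those kept 14 were lower and 0 higher, where 11.2% of all genes were lower, and the median was -1.50. Without those 3 genes 11 of 12 were lower, with a median of -1.69. Cd3g, a chain of the receptor complex, stood at 3.3, 2.09 and 4.34 TPM in B16mhgp100 and at 14.53 and 17.07 TPM in B16F10 (-2.02, SE 0.26, adjusted p = 0.00832). Zap70, the kinase recruited to the receptor, stood at 1.21, 0.94 and 0.88 TPM against 6.76 and 7.73 TPM (-2.04, SE 0.19, adjusted p = 0.00459). Zap70 is among these 12 but met the filter through B16F10, so its lower level follows from the filter too. Trbc2, a constant gene of the receptor's beta chain, stood at 5.25, 2.35 and 2.53 TPM against 15.54 and 19.94 TPM (-2.15, SE 0.32, adjusted p = 0.0102). Each B16mhgp100 library lay below both B16F10 libraries for each of these 12 genes, where 24.4% of all genes did. The adhesion receptor gene Cd2 (-1.83) and the adaptor gene Lat (-1.63) were lower as well. Cd247 had a log2 difference of -0.47 and did not pass, and Cd28 was under the filter. In Vector tumours 12 of these genes were tested, 1 was higher and 0 were lower, and the median was 0.48. There Cd3g stood at 5.63, 1.62, 3.52 and 3.24 TPM in B16mhgp100 and at 3.06 and 0.26 TPM in B16F10, so the high values were those of the B16F10 Aoah tumours. The difference between the contrasts passed for 2 genes, Zap70 and the kinase gene Lck. The count of lower genes was 0 without B16F10 Aoah 1, 2 without B16F10 Aoah 2 and 0 with B16mhgp100 Aoah 4 added, at medians of -1.72, -1.60 and -1.35.

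Genes of CD8 T cells and their effector programme went the same way, with 6 of 11 kept lower, 0 higher and a median of -1.23, where 3 of those kept, Fasl, Gzmk and Tbx21, reached the filter in B16F10 alone. Without these 5 of 8 were lower, where 11.2% of all genes were. Nkg7, a cytotoxic granule protein, stood at 7.64, 5.52 and 5.26 TPM in B16mhgp100 and at 44.27 and 48.04 TPM in B16F10 (-2.74, SE 0.18, adjusted p = 0.00331). Cd8a, a chain of the CD8 coreceptor, stood at 2.78, 1.86 and 2.82 TPM against 12.52 and 13.96 TPM (-2.04, SE 0.20, adjusted p = 0.00494). Ccl5, a chemokine of activated T and NK cells, stood at 18.52, 20.13 and 16.62 TPM against 69.33 and 72.75 TPM (-1.89, SE 0.11, adjusted p = 0.0028). For these genes the ranges were well apart. Cd8b1 (-2.01), the transcription factor gene Tbx21 (-1.23) and Prf1, the gene of perforin (-0.88), were lower too. The granzyme genes Gzmb and Gzma did not pass. Gzmb stood at 14.66, 10.79 and 11.03 TPM against 12.06 and 16.33 TPM, with overlapping ranges (-0.21, adjusted p = 0.477), and Gzma had -0.43 (adjusted p = 0.293). In Vector tumours Cd8a stood at 3.24, 1.27, 2.14 and 0.98 TPM in B16mhgp100 and at 0.64 and 0.36 TPM in B16F10. The difference between the contrasts passed for Nkg7 (-3.64, adjusted p = 0.0292), Ccl5 (-2.99, adjusted p = 0.0292), Cd8a (-2.94, adjusted p = 0.0292) and Cd8b1 (-2.44, adjusted p = 0.0301). The list had 0 lower members without B16F10 Aoah 1, 3 without B16F10 Aoah 2 and 0 with B16mhgp100 Aoah 4 added.

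Several inhibitory receptors carried by activated T cells were lower too. Of 15 checkpoint receptor and ligand genes kept, 5 were lower and 2 higher, with a median of -0.25, and 2, Cd96 and Tox, reached the filter in B16F10 alone. Without these 4 of 13 were lower and the median was -0.11. Among all genes 11.2% were lower and 17.2% higher. Lag3 stood at 2.14, 1.62 and 2.09 TPM against 11 and 15.31 TPM (-2.25, SE 0.21, adjusted p = 0.00459), and Tigit at 1.38, 1.69 and 1.32 TPM against 8.25 and 11.4 TPM (-2.12, SE 0.20, adjusted p = 0.00494). Pdcd1, which encodes PD-1, the target of the antibody given to both models, stood at 2.34, 1.57 and 2.3 TPM against 9.99 and 12.31 TPM (-1.99, SE 0.20, adjusted p = 0.00557). None of these 3 ranges overlapped. Tox, a regulator of exhausted T cells (-1.19), and the ligand gene Pdcd1lg2 (-1.69) were lower, while Ctla4 (-0.25), Havcr2 (-0.11) and the ligand gene Cd274 (-0.30) did not pass. Pvr (0.85) and Lgals9 (0.37), which encode ligands, were the 2 higher members. The difference between the contrasts passed for Pdcd1 and Tigit. Without B16F10 Aoah 2 the list had 1 higher and 3 lower members and a median of 0.14. Without B16F10 Aoah 1, or with B16mhgp100 Aoah 4 added, 0 passed.

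**Figure D3:**
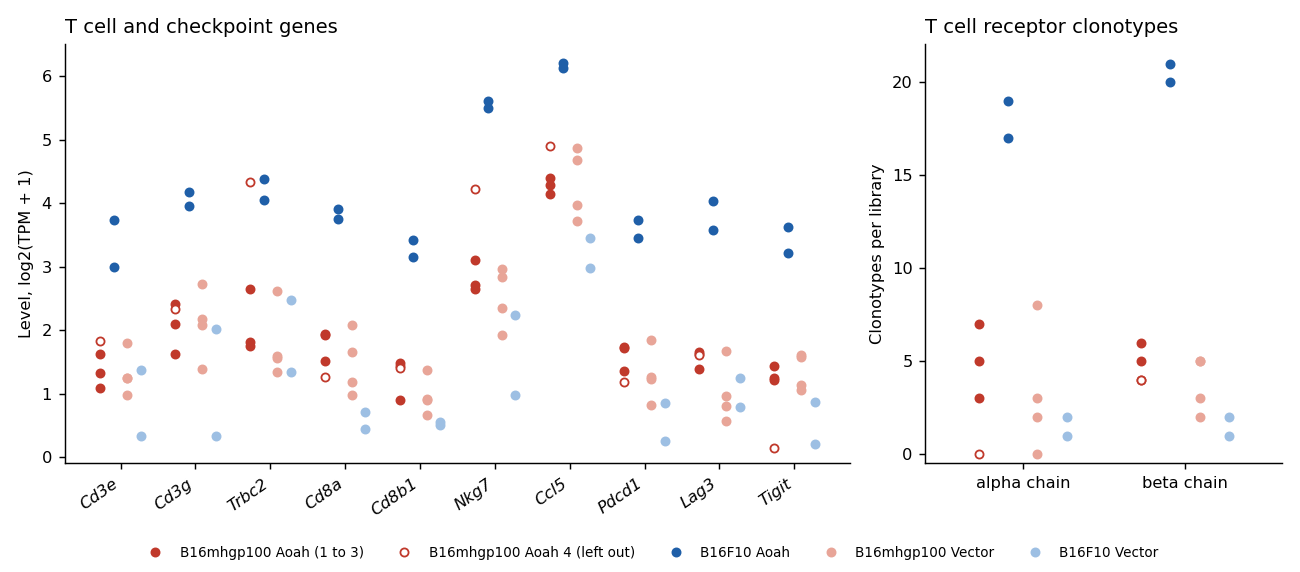
Left, levels as log2(TPM + 1) of 10 T cell and checkpoint genes in every library. Right, T cell receptor clonotypes per library. Both B16F10 Aoah libraries lie above the 3 B16mhgp100 Aoah libraries compared for each of these genes and for both chains.

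The receptor repertoire, assembled from the same libraries, divided the tumours likewise. The authors' deposited repertoire table lists 5, 3 and 7 T cell receptor alpha clonotypes in B16mhgp100 Aoah 1 to 3 and 19 and 17 in B16F10 Aoah 1 and 2. For the beta chain it lists 6, 5 and 4 against 20 and 21. Clones numbered 5, 3 and 9 against 22 and 21 for alpha and 6, 6 and 7 against 30 and 32 for beta. The groups did not overlap in these 4 measures. In the B16F10 Vector libraries it lists 1 and 2 alpha and 2 and 1 beta clonotypes, and in B16mhgp100 Vector libraries 0 to 8 alpha and 2 to 5 beta clonotypes. Immunoglobulin chains did not divide by model: heavy chain clones numbered 22, 35 and 0 against 2 and 3, and light chain clones 49, 37 and 1 against 4 and 2. Numbers this small depend on the depth of each library, which is unknown, so no test was made.

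Helper T cell, NK cell and B cell genes were mostly under the filter. Of 10 CD4 and regulatory T cell genes 4 were kept, and Tnfrsf4, the costimulatory receptor OX40, was the 1 that was lower (-0.72, SE 0.18, adjusted p = 0.0359). Cd4 stood at 1.02, 2.84 and 0.79 TPM against 2.3 and 2.65 TPM and did not pass, and Foxp3, Il2ra and Gata3 were under the filter. Of 8 NK cell genes 4 were kept, and 2 were lower, the receptor gene Klrc1 (-1.48, adjusted p = 0.01) and the chemokine gene Xcl1 (-0.83, adjusted p = 0.0328), both also expressed by CD8 T cells. Klrc1 reached the filter in B16F10 alone, from which its lower level follows. The defining NK markers Ncr1 and Klrb1c were under the filter. Of 10 B and plasma cell genes 4 were kept and 0 passed. Igkc, the kappa constant region, stood at 30.24, 20.04 and 0.32 TPM against 1.67 and 0.29 TPM, so B16mhgp100 Aoah 3 lay with the B16F10 libraries (2.36, adjusted p = 0.256). Without B16F10 Aoah 1 or 2 no gene of these 3 lists passed.

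MHC class II genes, which present peptides to CD4 T cells, were lower in B16mhgp100 Aoah tumours, 7 of 10, where 11.2% of all genes were. The list had 0 higher members and a median of -1.27. H2-Ab1, a class II beta chain, stood at 305.11, 312.7 and 167.01 TPM in B16mhgp100 and at 717.56 and 762.66 TPM in B16F10 (-1.55, SE 0.29, adjusted p = 0.0173). H2-DMb1, a chain of the peptide exchange factor, stood at 114.72, 75.21 and 77.5 TPM against 229.52 and 264.11 TPM (-1.48, SE 0.21, adjusted p = 0.00924). Each B16mhgp100 library lay below both B16F10 libraries for 7 of 9 genes, where 24.4% of all genes did, leaving out H2-Oa, which reached the filter in B16F10 alone. H2-DMa had -1.32 and H2-DMb2 -1.35, and reads of H2-DMb1 and H2-DMb2 may be shared, as these genes are near-identical. Ciita, the class II transactivator (0.15), Ctss (-0.06) and H2-Oa (-0.85) did not pass. In Vector tumours the list had a median of 0.56, with 2 of 9 higher, H2-DMb1 (1.38) and Ciita (1.70). For H2-DMb1 the difference between the contrasts was -2.86 (adjusted p = 0.00556). With the length and GC trend removed 7 were lower. Without B16F10 Aoah 1, without B16F10 Aoah 2 and with B16mhgp100 Aoah 4 added, 0 passed, at medians of -1.31, -1.25 and -1.19.

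Several class I presentation genes, which serve CD8 T cells, were lower in B16mhgp100 Aoah tumours but not in B16mhgp100 Vector tumours. Of 15 genes 5 were lower and 2 higher in B16mhgp100 Aoah tumours, with a median of -0.31, where 11.2% of all genes were lower and 17.2% higher. In Vector tumours 11 were higher and 0 lower, with a median of 1.42, where 3.01% of all genes were higher. Psmb9, an immunoproteasome subunit, stood at 292.75, 205.48 and 245.46 TPM against 383.25 and 397.26 TPM in Aoah tumours (-0.67, SE 0.16, adjusted p = 0.0307). In Vector tumours it stood at 198.65, 155.7, 216.12 and 202.5 TPM in B16mhgp100 and at 69.6 and 31.6 TPM in B16F10. So B16F10 had the higher level with Aoah and the lower level with Vector, and the difference between the contrasts passed (adjusted p = 0.0292 for Psmb9). It also passed for Psmb8, H2-K1, H2-D1, Tap1, Tap2 and H2-Q4, 7 of the 15 in all and each in the same direction. H2-K1, a class I heavy chain, stood at 2272.86, 1967.25 and 1908.11 TPM against 2786.81 and 3034.43 TPM (-0.51, SE 0.12, adjusted p = 0.0289), and Tap2, a peptide transporter chain, had -0.72 (adjusted p = 0.0241). Nlrc5, the class I transactivator (0.78), and B2m, the light chain (0.49), were higher. The differences in Aoah tumours were small, and with the length and GC trend removed 1 gene was higher and 0 were lower. Without B16F10 Aoah 1, without B16F10 Aoah 2 or with B16mhgp100 Aoah 4 added 0 passed in Aoah tumours.

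Of 19 interferon-gamma targets kept, 7 were higher, where 17.2% of all genes were. The 2 that were lower are a count near the 11.2% of all genes. The median was 0.17 in Aoah tumours and 1.81 in Vector tumours. Cxcl11 reached the filter in B16mhgp100 alone, and without it 6 of 18 were higher. Higher genes included the guanylate-binding protein genes Gbp7 (1.35), Gbp2 (1.17), Gbp3 (1.06) and Gbp4 (0.74), and Cxcl10, a CXCR3 ligand like Cxcl11. Cxcl10 stood at 169.33, 193.36 and 154 TPM against 80.59 and 79.39 TPM (1.09, SE 0.12, adjusted p = 0.00591). The ranges lay well apart, and Vector tumours had 1.21 (adjusted p = 0.0595). Irf8, a myeloid transcription factor (-0.89), and the feedback inhibitor gene Socs1 (-0.90) were lower. Ifng itself stood at 2.55, 2.41 and 0.94 TPM against 2.76 and 2.61 TPM and did not pass (-0.36, adjusted p = 0.429), nor did Irf1 (-0.06). The median was 0.00 with the length and GC trend removed and -0.19 with B16mhgp100 Aoah 4 added. Without B16F10 Aoah 1 the list had 1 higher and 0 lower members, and without B16F10 Aoah 2 it had 3 and 0.

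Type I interferon-stimulated genes were higher in B16mhgp100 Aoah tumours, 13 of 19 kept, where 17.2% of all genes were. The list had 0 lower members and a median of 0.87. For all 19 each B16mhgp100 library lay above both B16F10 libraries, where 35.3% of all genes did. Ifit1, an antiviral RNA-binding protein, stood at 19.6, 18.53 and 12.35 TPM against 2.11 and 1.98 TPM (2.52, SE 0.23, adjusted p = 0.00459). Isg15, a ubiquitin-like modifier, stood at 169.41, 158.74 and 158.58 TPM against 65.61 and 72.87 TPM (1.22, SE 0.09, adjusted p = 0.00384). Both genes divided the 5 libraries by model. Oas3 (1.41), a sensor enzyme of double-stranded RNA, and Ifih1 (1.40), the sensor MDA5, were higher too. Those that did not pass were Mx1 (0.54), Mx2 (0.63), Oasl1 (0.78), Rsad2 (0.24), Usp18 (0.19) and Xaf1 (0.49). Vector tumours had 13 of 19 higher, where 3.01% of all genes were, and a median of 1.62. The difference between the contrasts passed for 0. With the length and GC trend removed 8 were higher. The count was 0 without B16F10 Aoah 1, 3 without B16F10 Aoah 2 and 0 with B16mhgp100 Aoah 4 added.

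The promoters of these genes hold known interferon motifs to different degrees. The windows that follow are the 250 bases before the start of 3 genes higher in B16mhgp100 Aoah tumours and of Psmb8, which was lower (-0.54), shown because these genes differed in opposite directions. They come from RefSeq on GRCm38.p6, 5′ to 3′ on the gene's strand. Capitals mark matches on either strand to the core of the interferon-stimulated response element, GAAA and GAAA with 2 bases between them, or, in Psmb8, to the gamma-activated site TTCNNNGAA. In Isg15 neighbouring matches overlap in 1 run.
Ifit1 (chr19:34640639-34640888, plus strand): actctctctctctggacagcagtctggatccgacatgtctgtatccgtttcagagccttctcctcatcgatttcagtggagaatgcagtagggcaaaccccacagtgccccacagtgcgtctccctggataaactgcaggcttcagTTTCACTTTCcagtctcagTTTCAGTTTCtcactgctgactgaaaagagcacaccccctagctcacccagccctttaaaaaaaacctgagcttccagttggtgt
Isg15 (chr4:156200819-156201068, minus strand): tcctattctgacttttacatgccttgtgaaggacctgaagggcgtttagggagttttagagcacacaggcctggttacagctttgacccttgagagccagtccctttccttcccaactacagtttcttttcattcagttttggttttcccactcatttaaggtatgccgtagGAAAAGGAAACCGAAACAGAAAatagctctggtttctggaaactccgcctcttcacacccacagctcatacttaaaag
Cxcl10 (chr5:92348890-92349139, minus strand): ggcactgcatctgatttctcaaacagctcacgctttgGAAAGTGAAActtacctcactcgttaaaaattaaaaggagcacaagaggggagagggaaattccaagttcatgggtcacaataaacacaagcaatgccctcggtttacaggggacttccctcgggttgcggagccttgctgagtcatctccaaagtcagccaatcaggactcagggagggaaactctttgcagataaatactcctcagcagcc
Psmb8 (chr17:34197945-34198194, plus strand): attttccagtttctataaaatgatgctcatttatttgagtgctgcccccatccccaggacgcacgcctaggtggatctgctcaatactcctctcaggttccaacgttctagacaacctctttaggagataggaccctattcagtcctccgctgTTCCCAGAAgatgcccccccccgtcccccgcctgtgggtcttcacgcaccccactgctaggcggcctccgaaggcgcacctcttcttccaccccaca
The first motif was found 2 times in the window of Ifit1, 3 times in that of Isg15 and 1 time in that of Cxcl10. It was present in the windows of 3.46% of 27025 genes, of 6 of 13 matched type I interferon-stimulated genes, 8 of 15 interferon-gamma genes and 2 of 13 class I genes. The gamma-activated site was present in 8.13% of genes and in 2, 6 and 1 genes of these lists. The windows of Psmb9, Tap1 and H2-K1 held neither. A match is a string of letters and was not tested as a binding site.

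**Figure D4:**
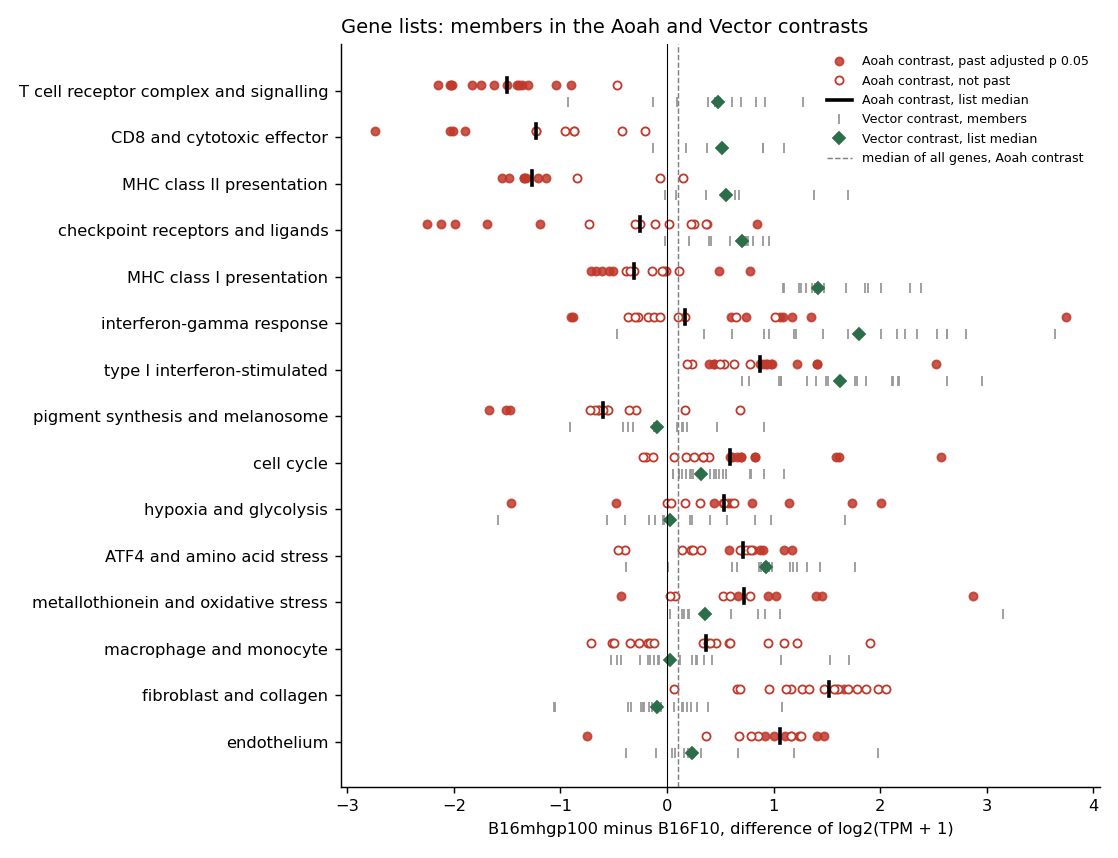
Log2 differences of list members in Aoah tumours (circles, filled where the adjusted p passed 0.05, with a bar at the median) and in Vector tumours (ticks, with a diamond at the median). T cell, CD8, class II and class I medians lie below 0 in Aoah tumours and above 0 in Vector tumours, and the medians of type I interferon-stimulated genes lie above 0 in both.

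Pigment genes were lower in B16mhgp100 Aoah tumours, 6 of 15, where 11.2% of all genes were. The list had 0 higher members and a median of -0.60. Trpm1, a melanocyte ion channel, stood at 465.51, 280.81 and 353.46 TPM against 1119.55 and 1175.96 TPM (-1.67, SE 0.21, adjusted p = 0.00795). Slc24a5, a melanosomal exchanger needed for dark pigment, stood at 318.97, 224.74 and 286.15 TPM against 767.55 and 752.67 TPM (-1.47, SE 0.16, adjusted p = 0.00605). Each B16mhgp100 library lay below both B16F10 libraries for 13 of the 15, where 24.4% of all genes did. Oca2 (-1.51) and the melanosome transport genes Rab27a (-0.64) and Mlph (-0.60) were lower, while Mlana (0.17), Tyr (-0.55), Tyrp1 (-0.29) and Dct (-0.60) did not pass. In Vector tumours 0 passed, with a median of -0.09. Of 14 melanocyte regulators kept 2 were higher and 3 lower, where 17.2% of all genes were higher and 11.2% lower. Mc1r, the receptor that switches on pigment synthesis, stood at 101.83, 80.72 and 108.34 TPM against 228.53 and 195.3 TPM (-1.13, SE 0.15, adjusted p = 0.00907). Kit, the receptor of stem cell factor, went the other way, at 29.24, 38.17 and 20.86 TPM against 10.02 and 6.55 TPM (1.70, SE 0.29, adjusted p = 0.0141), as did the receptor gene Erbb3 (0.72). Bcl2a1b (-1.47) and S100b (-1.26) were lower, and Mitf (0.49), Sox10 (-0.47) and Pax3 (-0.30) did not pass. Of 12 dedifferentiation and neural crest genes kept, Nes (2.24) and Aqp1 (2.05) were higher and Sox9 (-2.15) was lower, counts near those shares. The count of lower pigment genes was 0 without B16F10 Aoah 1, 1 without B16F10 Aoah 2, 0 with B16mhgp100 Aoah 4 added and 10 without B16mhgp100 Aoah 2.

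Cell cycle genes were higher in B16mhgp100, 11 of 20 with 0 lower and a median of 0.59, where 17.2% of all genes were higher. Mki67, which encodes the proliferation marker Ki-67, stood at 24.84, 27.96 and 30.02 TPM against 3.11 and 4.58 TPM (2.57, SE 0.18, adjusted p = 0.0038). Bub1, a spindle checkpoint kinase, stood at 39.75, 41.33 and 40.84 TPM against 11.49 and 13.84 TPM (1.61, SE 0.11, adjusted p = 0.00384). Both B16F10 libraries were far below the 3 of B16mhgp100. In Vector tumours Mki67 stood at 38.54, 48.12, 45.9 and 50.85 TPM in B16mhgp100 and at 38.52 and 10.94 TPM in B16F10, a difference of 1.10 (adjusted p = 0.163). The difference between the contrasts did not pass for Mki67 (adjusted p = 0.282). Cenpf (1.58), Cdk1 (0.83) and Top2a (0.83) were higher, while the replication genes Mcm2 (-0.20), Mcm5 (-0.13) and Pcna (0.25) did not pass. With the length and GC trend removed 7 were higher, and Mki67 had 2.14 and Bub1 1.29. The count was 0 without B16F10 Aoah 1, 4 without B16F10 Aoah 2 and 0 with B16mhgp100 Aoah 4 added.

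Genes of the low-oxygen response and glycolysis were higher in 8 of 16 and lower in 2, with a median of 0.53. Among all genes 17.2% were higher and 11.2% lower. Vegfa, the angiogenic growth factor, stood at 201.21, 285.83 and 290.63 TPM against 67.15 and 85.79 TPM (1.74, SE 0.20, adjusted p = 0.00689). Adm, the vasodilator adrenomedullin, stood at 118.35, 144.48 and 141.8 TPM against 28.3 and 37.82 TPM (2.00, SE 0.16, adjusted p = 0.00427). For both genes the B16mhgp100 libraries lay far above B16F10, and Bnip3, a mitophagy receptor, had 1.15. The lactate exporter gene Slc16a3 was lower, at 134.09, 175.16 and 141.33 TPM against 443.13 and 383.32 TPM (-1.46, SE 0.14, adjusted p = 0.00517), and its Vector difference was -1.58. Pfkp, a glycolytic enzyme (-0.47), was the other lower member. In Vector tumours the median was 0.03, and the difference between the contrasts passed for 0. The list had 5 higher members with median-of-ratios scaling and 4 with the length and GC trend removed. It had 0 without B16F10 Aoah 1, 3 without B16F10 Aoah 2 and 0 with B16mhgp100 Aoah 4 added.

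ATF4 targets, which respond to amino acid shortage, were higher in 7 of 16, with 0 lower and a median of 0.72, and in Vector tumours the median was 0.93 with 4 higher. Among all genes 17.2% were higher in Aoah tumours and 3.01% in Vector tumours. Phgdh, the first enzyme of serine synthesis, stood at 236.29, 218.52 and 230.81 TPM against 106.29 and 94.95 TPM (1.18, SE 0.09, adjusted p = 0.00414). Psat1, the next enzyme, had 0.90, Atf3 0.87 and Ddit3, the stress factor CHOP, 1.10. In Vector tumours the differences of Phgdh, Psat1 and Ddit3 were 1.16, 0.96 and 1.18. Metal and oxidant response genes were higher in 6 of 12 and lower in 1, with a median of 0.72. Slc40a1, the iron exporter ferroportin, stood at 31.66, 23.53 and 27.22 TPM against 2.54 and 3.19 TPM (2.88, SE 0.17, adjusted p = 0.0028) and had 3.15 in Vector tumours. The metallothionein genes Mt2 (1.45) and Mt1 (1.02) and the thioredoxin reductase gene Txnrd1 (1.40) were higher as well, and Sod2 (-0.43) was lower. Of 13 p53 targets kept 2 were higher, Mdm2 (0.90) and Cdkn1a (0.70), and 3 lower, Phlda3 (-0.84), Bax (-0.53) and Bbc3 (-0.50). Among all genes 17.2% were higher and 11.2% lower. The p53 median was 0.22, and -0.07 with the length and GC trend removed. Mitochondrially encoded genes were lower in 4 of 13, with a median of -0.67, among them mt-Nd1 (-0.95) and mt-Atp6 (-1.03), and the Vector median was -0.66. Without B16F10 Aoah 1 no gene of these 4 lists passed, and without B16F10 Aoah 2 the ATF4 list had 5 higher, the metal and oxidant list 2 higher, the p53 list 1 higher and the mitochondrial list 0 lower.

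Vessel genes were higher in B16mhgp100 Aoah tumours. Of 14 endothelial genes 7 were higher and 1, Eng, was lower, where 17.2% of all genes were higher and 11.2% lower. The endothelial median was 1.06, and the Vector median was 0.23. Cdh5, the endothelial cadherin, stood at 25.24, 15.59 and 15.65 TPM against 7.07 and 7.34 TPM (1.24, SE 0.24, adjusted p = 0.018). Pecam1, the adhesion molecule CD31, stood at 33.83, 26.8 and 17.17 TPM against 10.15 and 7.61 TPM (1.41, SE 0.30, adjusted p = 0.0235). The VEGF receptor genes Flt1 (1.10) and Kdr (1.16) and the junction gene Cldn5 (1.48) were higher. The B16mhgp100 libraries lay above both B16F10 libraries for 12 of 13 genes, where 35.3% of all genes did, leaving out Tek, which reached the filter in B16mhgp100 alone. Of 8 pericyte and smooth muscle genes kept 3 were higher, Abcc9 (1.33), Des (1.15) and Pdgfrb (0.84). Abcc9 reached the filter in B16mhgp100 alone, so its higher level follows from the filter, and without it 2 of 7 were higher. The difference between the contrasts passed for none of these genes, 0 of 14 endothelial and 0 of 8 pericyte genes. The endothelial count was 0 without B16F10 Aoah 1, 0 without B16F10 Aoah 2 and 0 with B16mhgp100 Aoah 4 added, at medians of 1.15, 0.99 and 0.93, and it was 3 without B16mhgp100 Aoah 1.

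Collagen and macrophage genes varied widely among the B16mhgp100 tumours. Of 18 fibroblast and collagen genes 2 were higher and 18 lay above 0, with a median of 1.52. Sparc, a matrix protein that melanoma cells also express, stood at 1368.14, 1824.39 and 1174.29 TPM against 525.41 and 388.94 TPM (1.66, SE 0.23, adjusted p = 0.00905), and Fn1, fibronectin, had 1.59 (adjusted p = 0.0474). Col3a1, a fibrillar collagen, stood at 355.72, 1218.4 and 26.3 TPM against 91.85 and 59.85 TPM and did not pass (adjusted p = 0.473). B16mhgp100 Aoah 2 was far above the rest and B16mhgp100 Aoah 3 was the lowest of all 5. The median was 0.72 without B16mhgp100 Aoah 2, and 2.05 with 17 members higher without B16mhgp100 Aoah 3. Macrophage genes were spread alike: Adgre1, which encodes F4/80, stood at 30.44, 106.88 and 5.56 TPM against 18.45 and 20.55 TPM, and 0 of 18 passed. Their median was 0.36, and -0.30 without B16mhgp100 Aoah 2. Of 11 genes of alternatively activated macrophages kept Chil3 (0.88) was higher and Pdcd1lg2 (-1.69) lower, and the median of 0.65 turned to -0.33 without the same library. The medians of inflammatory cytokine and chemokine genes (0.23) and of eicosanoid genes (0.22) also turned below 0 without it, to -0.37 and -0.11.

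In the pathways nearest to the enzyme the counts of calls were near those of all genes, of which 17.2% were higher and 11.2% lower. Of 14 lipopolysaccharide recognition genes Casp4, the intracellular lipopolysaccharide sensor (1.28, SE 0.34, adjusted p = 0.0411), and the signalling gene Traf6 (0.55) were higher, and the adaptor gene Ticam1 was lower (-0.67, adjusted p = 0.0266). The receptor genes Tlr4 (0.58), Ly96 (0.39) and Cd14 (0.59) did not pass. With the length and GC trend removed, without B16F10 Aoah 1 or without B16F10 Aoah 2, 0 passed. Of 15 eicosanoid genes kept 2 were higher. Pla2g4a, the phospholipase that releases arachidonic acid, stood at 18.31, 18.04 and 15.95 TPM against 5.09 and 5.24 TPM (1.58, SE 0.13, adjusted p = 0.00442), a difference of 2.03 in Vector tumours, and Ptges3 had 0.89. By limma none of 14 inflammatory, 18 macrophage, 5 neutrophil and 16 cholesterol synthesis genes passed, at medians of 0.23, 0.36, 0.72 and -0.10.

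Markers of other tissues varied among the 5 libraries. The red blood cell score ran from 5.08 to 6.37 in them and was 8.71 in B16mhgp100 Aoah 4. Krt14, a basal keratin, stood at 0, 0.13 and 2.27 TPM against 2.61 and 2.01 TPM, where B16mhgp100 Aoah 4 had 600.09 TPM. Of 7 keratinocyte genes kept Lgals7 was the 1 that passed, at 77.78, 75.79 and 71.02 TPM against 14.91 and 10.64 TPM (2.48, adjusted p = 0.00296), with 2.40 in Vector tumours. Mylpf, a myosin light chain of fast muscle fibres, was at 16.79, 45.3 and 14.79 TPM against 4.5 and 3.98 TPM (2.17, adjusted p = 0.0264) and was the 1 muscle gene of 9 kept to pass. Adipocyte genes had 0 of 5 past the threshold, and the defining markers Adipoq, Plin1 and Cidec were under the filter. Red blood cell genes had 1 of 5, Hbb-bt (1.04), and Schwann cell genes 1 of 5, Mbp (1.16). Dendritic cell genes had 2 of 9 lower, where 11.2% of all genes were: the actin bundling gene Fscn1 (-1.73) and the integrin gene Itgax (-1.33). Flt3 and Xcr1 were under the filter. Of 5 sex-linked genes 1 was kept, Xist, at 3.91, 7.45 and 1.2 TPM against 2.15 and 2.4 TPM (0.46, adjusted p = 0.573). The part of these cells in the other results was not tested.

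Differences were also grouped by the place of genes along the chromosomes, as a description of expression, since copy number was not measured. Among 13393 windows of 25 neighbouring genes, in the gene order of the GRCm38 annotation, the window median lay between -0.514 and 0.685 at the 1st and 99th percentiles. Across windows the Aoah and Vector medians correlated at r = 0.662, and neighbouring windows share genes. The highest window lay on chromosome 10, from Rap1b to Slc16a7, with a median of 0.817 in Aoah and 0.739 in Vector tumours. Of its 25 genes 17 were higher, or 16 of 23 without the genes that reached the filter in 1 group alone. One of the higher genes was Hmga2, an embryonic chromatin protein (2.97), at 13.4, 24.81 and 13.56 TPM against 1.69 and 0.87 TPM. Hmga2 met the filter through B16mhgp100, so its higher level follows from the filter. Another window, on chromosome 1 from Pigm to Cep170 (0.782 and 0.795), holds interferon-inducible genes of the Ifi200 family, including Ifi203 (1.06) and Mndal (1.04). A further window on chromosome 10, from Ndufa12 to Alx1, had 0.763 and 0.615, with 14 higher, or 13 of 23 on the same terms. These 3 windows were high in Aoah and Vector tumours, and their medians in Aoah tumours were 0.574, 0.559 and 0.494 with the length and GC trend removed.

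Of the 3 lowest windows 2 hold immune genes. That on chromosome 17 from Rxrb to Prrt1 covers class II genes with Tap1 and Psmb8, and had a median of -0.765 in Aoah and -0.018 in Vector tumours, with 17 of 25 genes lower, or 16 of 22 without the genes that reached the filter in B16F10 alone. The window on chromosome 6 from Ssbp1 to Rny1 covers segments of the T cell receptor beta chain and had -0.733 and 0.172, with 8 lower and 1 higher. Of the lower genes Trbv13-1 and Trbv19 reached the filter in B16F10 alone and Trbv13-2 met it through B16F10, so their lower level follows from the filter. Without Trbv13-1 and Trbv19 6 were lower. The third, on chromosome 8 from Gdf1 to Il12rb1, had -0.651 and -0.427 with 14 lower, among them Isyna1. The difference between Aoah and Vector tumours was not tested by window.

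**Figure D5:**
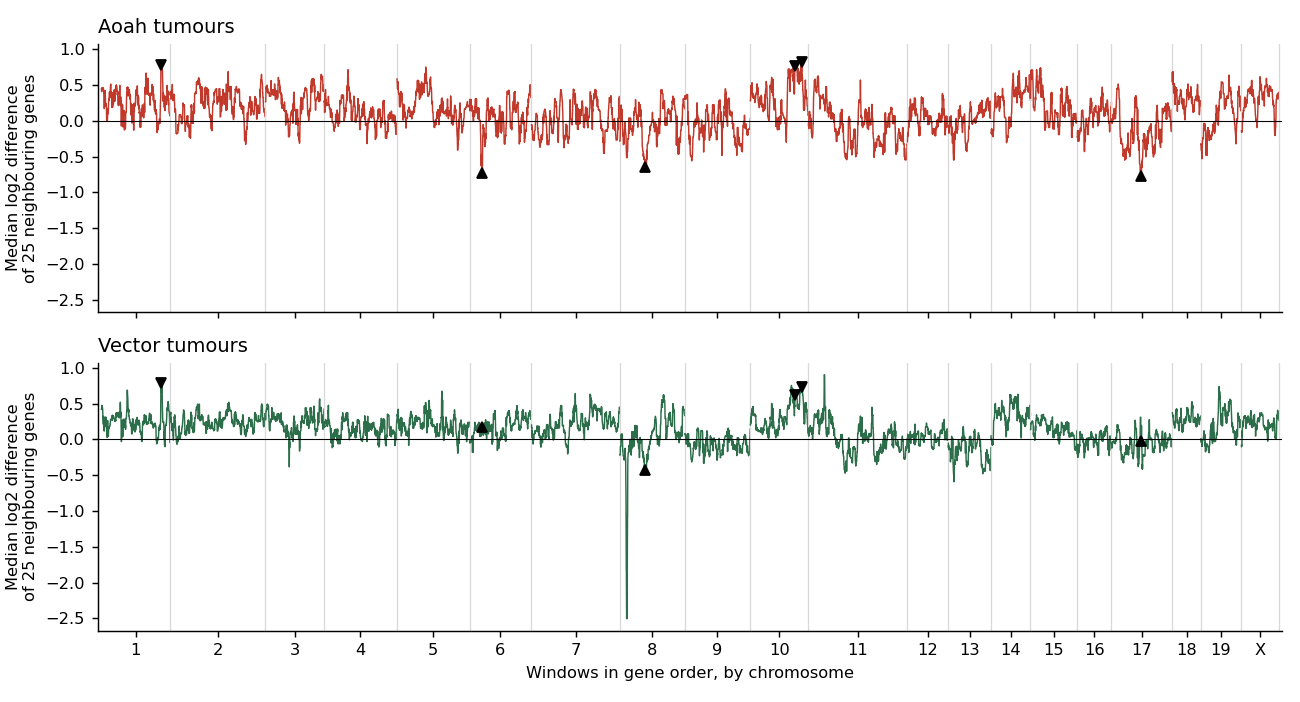
Running median of the log2 difference over 25 neighbouring genes, in gene order by chromosome, in Aoah tumours (top) and Vector tumours (bottom), with triangles at the 3 highest and 3 lowest Aoah windows. The high windows of chromosomes 1 and 10 appear in both panels. The lowest of the Vector panel, -2.50 on chromosome 8 from Gm10060 to Atp7b, is at -0.51 in the Aoah panel. It lies at the alpha-defensin genes, which are present or near absent in libraries of 1 group and whose reads may be shared.

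The rule named 5 genes in each direction among the 45 whose model difference itself differed between Aoah and Vector tumours. Apol9a, an interferon-induced apolipoprotein L, stood at 218.91, 128.77 and 194.89 TPM against 124.65 and 122.88 TPM in Aoah tumours. In Vector tumours it stood at 133.38, 144.98, 165.47 and 157.85 TPM in B16mhgp100 and at 13.4 and 6.5 TPM in B16F10, so B16F10 Vector was the low group. The difference between the contrasts was -3.35 (adjusted p = 0.0113), and its near-identical neighbour Apol9b had -3.39. Cd109, a surface glycoprotein, was high in B16F10 Vector tumours, at 33.23 and 35.29 TPM, where the other 9 libraries of the fit lay between 12.5 and 14.84 TPM (1.28, adjusted p = 0.0174). Rbm25 (1.52) and Luc7l3 (1.55), genes of RNA splicing, and Tpr, of the nuclear pore (1.06), were lower in the B16F10 Aoah libraries than in the other 9 of the fit. Rbm25 stood at 17.79 and 17.87 TPM there, at 52.6, 64.83 and 57.36 TPM in B16mhgp100 Aoah 1 to 3 and at 80.3 and 63.11 TPM in B16F10 Vector tumours. The B16F10 Aoah libraries also had the highest rho of deviation with GC content, 0.392 and 0.369. No value with that trend removed is given here for Rbm25, Luc7l3 or Tpr. The count of 45 depends on single libraries: it was 6 without B16F10 Aoah 1, 4 without B16F10 Aoah 2, 403 without B16F10 Vector 1 and 359 without B16F10 Vector 2. Without any 1 of the B16mhgp100 libraries it lay between 8 and 57, and with B16mhgp100 Aoah 4 added it was 5.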

How the data were processed

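RNA of 12 tumours was sequenced as poly(A)-selected paired-end libraries, per the labels' protocols. The authors deposited log2(TPM + 1) values per gene. Per the submitters' processing notes RSEM and the build mm39 were used. No source used here gives versions, annotation or trimming. The deposited repertoire table was made with MiXCR going by its name, with settings not given. RSEM shares reads between near-identical genes, and TPM keeps no depth. The authors' tables of Aoah against Vector, made with DESeq2 per the submitters' processing notes, hold no comparison of the models and were not used.

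Genes with 1 TPM in at least 2 of the libraries compared were kept. Differences were tested with limma 3.58.1 in R 4.3.3 (intensity trend, 2-sided, Benjamini-Hochberg over all genes kept), with an adjusted p below 0.05 as a call. The same fit was made in 6 Vector libraries, and the difference of both contrasts in 11 libraries. Scripts were tested on simulated data.

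Genes were named by rule: the 12 with the largest difference in each direction among calls whose groups did not overlap, leaving out predicted genes, pseudogenes and receptor segments, up to 4 of each list by p, up to 5 in each direction of the interaction, and 3 windows at each end. A gene that the rule names is not reported here. Further genes were named after their values were seen. The members and the 36 lists (480 members, 3 absent from the table) were chosen with earlier results of these data known. Lists were described by counts and medians, with no test. Alternatives were the left-out library, each library in turn, a replicate block, a shared spread, pseudocounts of 0.1 and 5, no filter or 5 TPM, median-of-ratios scaling, no trend and, added after seeing the data, removal of the trend with transcript length and GC (natural splines with 4 degrees of freedom).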

Additional observations from a re-analysis of the deposited data

Results flagged for a closer look

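For the 10 genes that the rule named by this result, the difference between B16mhgp100 and B16F10 was not the same in Aoah and in Vector tumours. The difference itself was tested in 11 libraries, and the 10 were picked because they passed. Other named genes given above, such as Cd8b1 and H2-DMb1, passed too. The difference was lower in Aoah tumours for Nkg7 (-3.64), Apol9b (-3.39), Apol9a (-3.35), Ccl5 (-2.99) and Cd8a (-2.94), on the log2 scale. It was higher for Rnase2a (4.98), Luc7l3 (1.55), Rbm25 (1.52), Cd109 (1.28) and Tpr (1.06). Rnase2a, a ribonuclease of eosinophil granules, stood at 0.2, 1.04 and 0 TPM against 0.38 and 0 TPM in Aoah tumours and was under the filter there. In Vector tumours it stood at 0, 0, 0.21 and 0.44 TPM in B16mhgp100 and at 65.07 and 14.18 TPM in B16F10. Rnase2a met the filter of the fit of 11 libraries through the B16F10 Vector libraries, so its difference follows from the filter.

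Among the 4 B16mhgp100 Vector libraries, B16mhgp100 Vector 3 had a red blood cell score, the mean log2(TPM + 1) of haemoglobin and related genes, of 5.51, far below the other 3, which lay between 6.28 and 6.38. Chance flags about 1 in 20 such groups.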

How the results depend on the processing

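Counts of calls moved most with single libraries. Leaving out 1 library at a time gave 17 to 2334 higher and 2 to 1656 lower genes in Aoah tumours, 108 to 3105 and 36 to 709 in Vector tumours, and 2 to 260 and 2 to 343 for the difference between the contrasts. In Vector tumours the upper ends came without B16F10 Vector 1. With B16mhgp100 Aoah 4 added there were 9 higher and 11 lower genes in Aoah tumours and 1 and 4 for the difference between the contrasts. With no filter 1666 genes were higher in Aoah tumours. With the length and GC trend removed 1229 were higher there, and 429 lower in Vector tumours. Median-of-ratios scaling gave 487 lower in Vector tumours. Apart from these settings and the replicate block, the alternatives run left the counts within 1.5 times.

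Across genes, replicate 1 minus replicate 2 in B16mhgp100 Aoah tumours correlated with the same difference in B16F10 Aoah tumours at r = -0.189. With only 2 shared numbers there is a single difference per group, so this value cannot tell whether the Aoah samples were paired. A replicate block gave 1888 higher and 1092 lower genes in Aoah tumours, 65 and 55 in Vector tumours, and 1 and 2 for the difference between the contrasts.

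Some named genes changed sign, on the log2 scale. With B16mhgp100 Aoah 4 added these were Ikzf2 (0.28), Klrk1 (0.14), Krt14 (1.06), Lta4h (-0.034), Perp (1.08) and Sfn (0.80). With the length and GC trend removed they were Cd44 (-0.13), Lta4h (-0.025) and Xist (-0.10), and with the replicate block Klrk1 (0.12). Leaving out 1 library gave -0.20 to 0.055 for Ikzf2, -0.25 to 0.16 for Klrk1 and -0.58 to 0.064 for Ly6c2, with the upper ends without B16F10 Aoah 2, and 0.12 for Klrk1 without B16mhgp100 Aoah 3. It gave -0.033 to 1.85 for Acta1 and -0.32 to 1.18 for Lpl, with the lower ends without B16mhgp100 Aoah 2. None of these had passed. List medians that turned and are not given above were those of skeletal muscle (-0.38), adipocyte (-0.32), p53 (-0.06) and cholesterol (0.11) genes without B16mhgp100 Aoah 2, of p53 genes without B16F10 Aoah 1 (-0.0097), of inflammatory genes at 5 TPM (-0.13), of eicosanoid genes with the length and GC trend removed (-0.025) and of keratinocyte genes with B16mhgp100 Aoah 4 added (0.80). At 5 TPM the NK cell, neutrophil and sex-linked lists had no gene left. The cause was not tested. TPM values keep no depth, so the limit it sets on low genes is unknown.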

Other observations

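Alpha-defensin genes, which encode antimicrobial peptides of Paneth cells in the small intestine, were either present or near absent in a library. They were present in 3 of 4 B16F10 libraries and in 2 of 8 B16mhgp100 libraries, a split that was not tested. They were picked out after their values were seen, and their reads may be shared, since the genes are near-identical. The summed level of 19 Defa genes kept was 352.14 TPM in B16F10 Aoah 2 and 0.84 TPM in B16F10 Aoah 1. In B16mhgp100 Aoah 1 to 3 it was 294.37, 2.01 and 0.48 TPM, and in B16mhgp100 Aoah 4 it was 0.62 TPM. Vector tumours had 199.15 and 325.19 TPM in B16F10 and 0.57, 0, 0.5 and 294.24 TPM in B16mhgp100. None of the 19 was called in Aoah tumours.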
